A study of Homo sapiens with 18 samples.

Results

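The constitutive proteasome genes were followed in RNA-seq data of 6 ovarian cancer cell lines, which form 3 pairs of a platinum-sensitive line and its resistant counterpart. Members were the rows of the expression table whose HGNC symbol had the form PSMA, PSMB, PSMC, PSMD, PSME, PSMF or PSMG followed by a number. The pattern matched 46 of the 12853 genes, and leaving out the 3 immunoproteasome subunits PSMB8, PSMB9 and PSMB10 gave 43 members. PSMA8 and PSMB11 were not analysed here. Each line had 3 replicate libraries, 18 in all.

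CP70 is a platinum-resistant derivative of A2780 obtained in vitro, and the labels call the source of both lines endometrial or ovarian cancer. The PEA pair and the PEO pair each trace back to 1 patient with high-grade serous ovarian cancer. In the PEA pair, whose cells are from ascites, the sensitive line predates platinum treatment and the resistant one dates from a resistant relapse. In the PEO pair both lines were taken after platinum-based chemotherapy, on either side of the onset of clinical resistance. All lines were grown in RPMI-1640 with glutamine and fetal bovine serum, and no drug treatment is given for the sequenced cells. A pair therefore stands for 1 line against 1 line, and any difference within it may belong to the line rather than to its platinum response. In bulk RNA, fewer cells of a type and less RNA per cell cannot be told apart. The sources do not say whether replicates were separate cultures, so p-values measure the spread between these libraries, which may be technical.

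The 26S proteasome degrades proteins that carry ubiquitin chains. Its 20S core is a barrel of 2 outer alpha rings, which gate the entry, and 2 inner beta rings, in which PSMB5, PSMB6 and PSMB7 hold the proteolytic sites. The 19S particle sits on the end of the barrel. Its base holds a ring of ATPases, the PSMC genes, that unfold the substrate, and its lid holds the deubiquitinase PSMD14. Other activators can take the place of the 19S particle, and PSMB8, PSMB9 and PSMB10 replace the 3 constitutive catalytic subunits in interferon-treated and immune cells. NFE2L1 is a transcription factor that raises proteasome genes when proteasome activity is short.

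The libraries held between 1344098 and 7067336 reads on the listed genes, and 3 reads corresponded to 0.452 to 2.18 CPM (reads of a gene scaled to the size of the library) depending on the library. Members had between 6 and 4858 reads in a library. The lines did not share 1 epithelial profile. The 5 epithelial markers summed to 2.94 to 4.25 CPM in A2780 libraries (7 to 10 reads) and 89.5 to 96.2 in CP70. They summed to 155 to 202 CPM in PEA1 and 2694 to 2908 in PEA2, and to 2848 to 2925 in PEO1 and 2950 to 3268 in PEO4. The 3 fibroblast markers in the table summed to 367 to 449 CPM in PEA1 and 3.60 to 4.80 in PEA2, and 2 of the 3 had no read in either line. Of the 5 serous or Müllerian markers 4 had no read in A2780. In PEA2 the leukocyte marker in the table, PTPRC, had 46 to 70 reads and the endothelial marker CDH5 had 66 to 88, against at most 2 reads in any library of the other lines. The part of these differences in the member values was not tested.

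Levels per length were compared first. A level per kilobase on the CPM scale (RPKM) was computed from the recovered reads and the exon length of the coding transcripts, for the 42 members with a matched gene model. The median over members was 45.7 RPKM. PSMB4, a structural beta subunit, was highest at 243 RPKM, with line means from 154 in PEO1 to 378 in CP70. PSMA3 of the alpha ring followed at 162 RPKM and PSMD2, a docking subunit of the 19S base, at 142. Of the catalytic subunits, PSMB7 lay at 112 RPKM, PSMB5 at 107 and PSMB6 at 89.4. PSMG4, an assembly chaperone of the core, was lowest at 1.32 RPKM, but this value rests on a long exon model of 7999 bases, and with the canonical transcript of 785 bases it rose to 13.5. That second length was chosen after the values were seen.

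The low end of this scale held genes that share exons with others. PSMA2, PSMA6, PSMA1 and PSMD9 lay at 7.62, 7.77, 13.7 and 4.12 RPKM, while the other members had a median of 49.2. These 4 genes share 100%, 63.9%, 39.5% and 28.5% of their exon bases with another annotated gene on the same strand, whereas 35 of the 42 members share none. How the counting treated reads on shared bases is not given in the sources used here, so their levels are uncertain. PSMC1, at 8.43 RPKM, shares 82.7% of its exon bases with NRDE2 on the opposite strand and has 13 named pseudogenes. The library kit keeps strand, but the strand setting of the counting is not given, and reads of these genes may have been split or dropped.

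**Figure D1:**
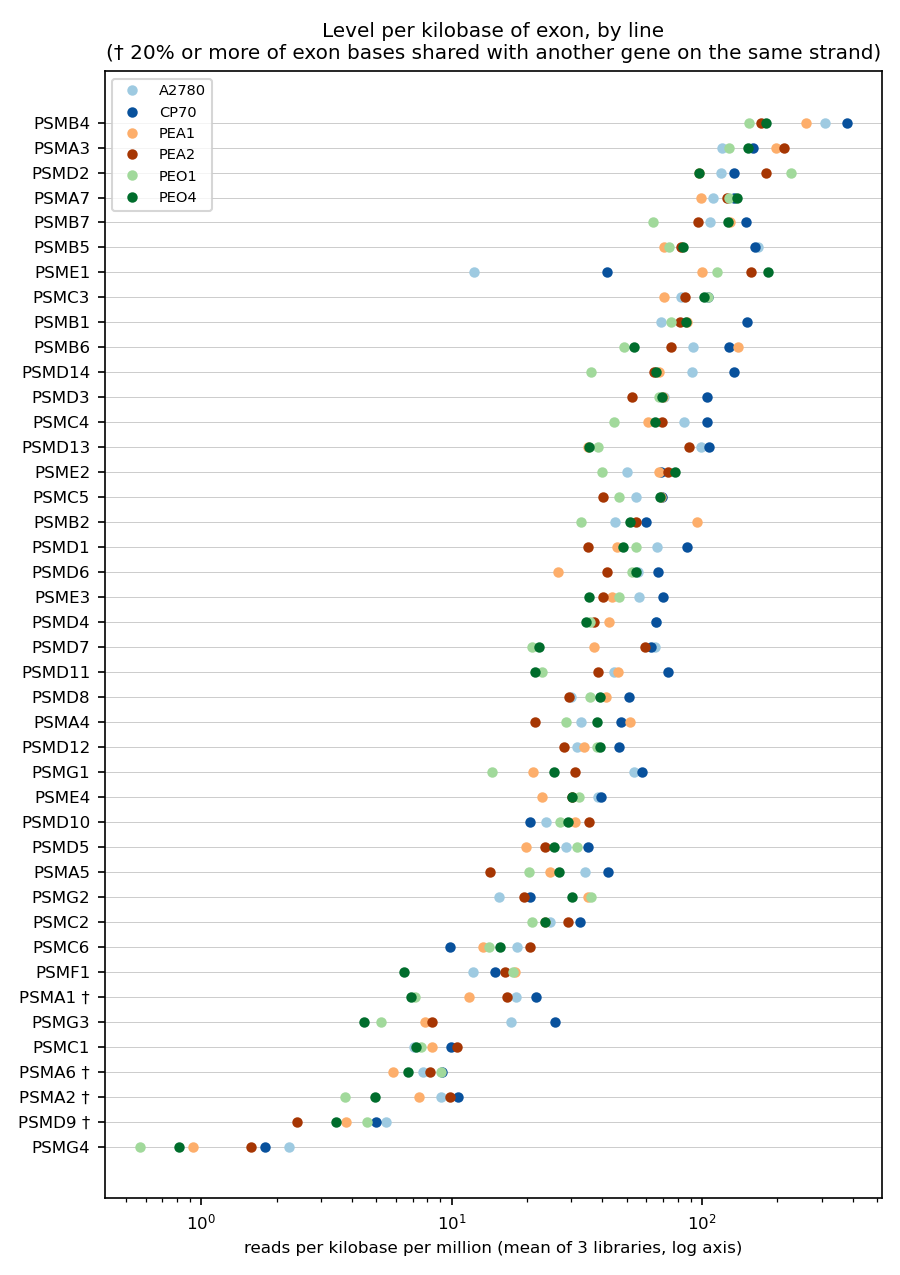
Level per kilobase (RPKM, log axis) for the 42 members with a gene model, 1 point per line as the mean of 3 libraries, ordered by the mean of the lines. PSMB4 is at the top and PSMG4 at the bottom, 4 of the low genes carry the mark for shared exons, and PSME1 has the widest spread, from 12.3 in A2780 to 184 in PEO4.

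The members varied less across lines than the median gene. On the log2 CPM scale the difference between the highest and the lowest line mean had a median of 1.23 over the members, against 1.88 over all genes and 1.59 over the 9281 genes whose mean lay within the range of the members. The narrowest range was 0.42 for PSMB3 and the widest 3.91 for PSME1. CP70 held the highest line mean for 25 of the 43 members, and PEO1 held the lowest for 12. These counts were not taken over all genes, so they cannot be read as a trait of the members. Together the members took 0.584% ± 0.010 (SD, n = 3) of the reads on listed genes in A2780 and 0.755% ± 0.0071 in CP70. The share was 0.521% ± 0.014 in PEA1 and 0.428% ± 0.0061 in PEA2, and it was 0.461% ± 0.016 in PEO1 and 0.469% ± 0.022 in PEO4. On the scaled CPM that the tests use, the fall in PEA2 was narrow, since the summed members were 5053 ± 174 CPM in PEA1 and 4917 ± 107 in PEA2, and these libraries overlapped.

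CP70 had more RNA of most proteasome genes than A2780, by moderate amounts. At an FDR below 0.05 (limma, Benjamini-Hochberg over all genes), 25 of 43 members were higher in CP70 and 1, PSMC6, was lower. Over all genes 22.2% were called higher and 17.7% lower. The epithelial markers given above also differed between these lines, and their part in the member values was not tested. The median log2 fold change (log2FC, resistant minus sensitive) was 0.32 over the members and -0.02 over all genes, and 37 members had a positive value. The rise covered both the core and the 19S particle, with 8 of 14 core subunits and 11 of 17 subunits of the 19S particle higher. Most changes were small. The study's threshold of |log2FC| above 2 with an FDR below 0.05 was met by 9.06% of all genes in this pair and by no member, the largest member value being 1.77. The count of members higher depended on single libraries and on processing. It was 16 without replicate 2 of A2780, 17 without replicate 1 or 2 of CP70 and 19 without replicate 3 of CP70. Leaving out replicate 1 or 3 of A2780 gave 21 and 22. Median centring and a fit without the variance trend each gave 19. In each of these fits 1 member was lower.

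**Figure D2:**
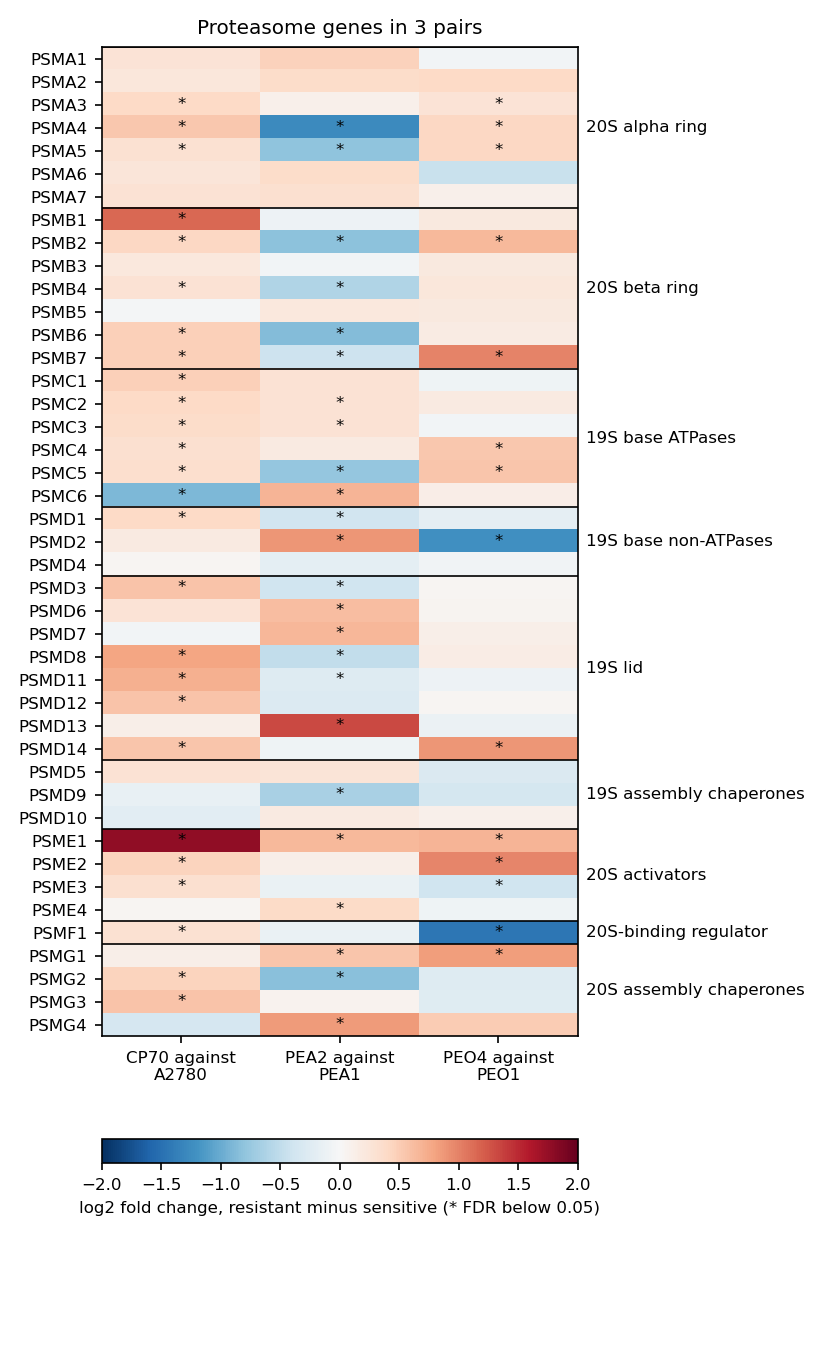
Colour shows the log2 fold change of each of the 43 members (rows, grouped by role) in each pair (columns), and a star marks an FDR below 0.05. The first column is nearly all positive, with 25 members called higher and 1 lower, while the second holds 11 higher and 13 lower and the third 11 higher and 3 lower.

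The gene that moved most in this pair was PSME1, the alpha subunit of the PA28 activator, an interferon-inducible ring that opens the core without ATP. Its gene lies at chr14:24605372-24608176 on the plus strand (GRCh37). A2780 libraries read 4.22, 3.64 and 3.82 log2 CPM and CP70 libraries 5.76, 5.65 and 5.58. Every CP70 library lay above every A2780 library, which the choice of PSME1 as the highest called member largely set. The log2FC was 1.77 ± 0.13 (SE, FDR 6.97e-10). PSME2, the beta subunit of the same ring, is encoded nearby at chr14:24612571-24616779 on the minus strand. It read 5.64, 5.37 and 5.86 in A2780 and 6.0, 6.19 and 6.03 in CP70, a smaller rise of 0.45 ± 0.13 (FDR 0.00717). Its call was lost when replicate 2 of A2780 was left out.

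PSMB1, a structural subunit of the beta ring, rose by 1.15 ± 0.14 in CP70 (FDR 8.45e-07). Its values were 6.19, 5.76 and 5.82 in A2780 and 7.13, 7.04 and 7.05 in CP70, and A2780 was the lowest line for this gene. Of the catalytic subunits, PSMB6 rose by 0.48 ± 0.14 (FDR 0.00825) and PSMB7 by 0.47 ± 0.14 (FDR 0.0113), the latter not without replicate 2 of A2780. PSMB5, the chymotrypsin-like subunit and the main target of bortezomib, had a log2FC of -0.03 ± 0.12 (FDR 0.859), with libraries of 8.02, 7.47 and 7.90 in A2780 and 7.83, 7.76 and 7.71 in CP70. Its sign turned under some alternatives. PSMB4, the member highest per kilobase, rose by 0.30 ± 0.11 (FDR 0.0336), a call lost when replicate 2 of A2780 or any 1 library of CP70 was left out. PSMA4 of the alpha ring rose by 0.54 ± 0.09 (FDR 5.14e-05).

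In the 19S particle, 5 of 8 lid subunits were higher in CP70. PSMD8 read 6.37, 6.78 and 6.40 in A2780 and 7.36, 7.28 and 7.29 in CP70 (log2FC 0.79 ± 0.13, FDR 5.86e-05). PSMD11 read 7.56, 7.67 and 7.74 against 8.40, 8.40 and 8.32 (0.72 ± 0.10, FDR 3.75e-06). The deubiquitinase PSMD14 rose by 0.55 ± 0.15 (FDR 0.0045). Of the 6 ATPases, 5 were higher, and PSMC6 was the exception. It read 5.21, 5.19 and 5.53 in A2780 and 4.34, 4.76 and 4.15 in CP70, and it fell by 0.89 on the log2 scale (SE 0.21, FDR 0.00152). No libraries overlapped, which the choice of PSMC6 as the lowest called member largely set. The ubiquitin receptors of the base gave 0.18 ± 0.11 for PSMD2 (FDR 0.212) and 0.03 ± 0.17 for PSMD4 (FDR 0.897).

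The other regulators gave small values. PSME3, the nuclear PA28 gamma subunit, rose by 0.32 ± 0.11 in CP70 (FDR 0.0268), and PSME4, the large PA200 activator, had a log2FC of 0.04 ± 0.10 (FDR 0.788). PSMF1, which encodes the core-binding protein PI31, rose by 0.30 ± 0.11 (FDR 0.0275). Among the chaperones that build the alpha ring, PSMG2 rose by 0.44 ± 0.16 (FDR 0.0293) while its partner PSMG1 had a value of 0.11 ± 0.15 (FDR 0.586). These 3 calls and that of PSMB4 were lost with median centring and without the variance trend. The call for PSME3 was also lost without replicate 1 or 2 of A2780 or replicate 2 or 3 of CP70, that for PSMF1 without replicate 3 of A2780 or any 1 library of CP70, and that for PSMG2 without replicate 1 or 3 of A2780 or replicate 2 or 3 of CP70. PSMG4 had a log2FC of -0.33 ± 0.31 (FDR 0.42).

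Members differed between PEA2 and PEA1 in both directions, in shares near those of all genes. In this pair 11 of 43 members (25.6%) were higher in the resistant line and 13 (30.2%) were lower, against 32.5% and 29.4% of all genes. Epithelial markers were higher and the fibroblast marker sum lower in PEA2, as given above, and their part in the member values was not tested. The median log2FC of the members was 0.10 and that of all genes 0.01. With quantile normalization, which moved the median of all genes to -0.10, 8 members were higher and 16 lower. Of the core, 4 of 7 beta subunits and 2 of 7 alpha subunits were lower and the other 8 subunits were not called. The median log2FC was -0.42 in the beta ring and 0.32 in the alpha ring, where 5 of 7 values were positive. In the 19S particle 7 of 17 subunits were higher and 5 were lower. The |log2FC| threshold of 2 was met by 14.1% of all genes in this pair and by no member.

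The 4 lowest values were those of PSMA4, PSMB6, the chaperone PSMG2 and PSMB2. PSMA4 of the alpha ring, at chr15:78832747-78844759, read 8.08, 7.99 and 7.96 in PEA1 and 6.67, 6.63 and 6.93 in PEA2. It was highest in PEA1 and lowest in PEA2 of all 6 lines, and it fell by 1.27 (SE 0.09, FDR 2.31e-10). PSMB6, the caspase-like catalytic subunit, read 7.16, 6.72 and 6.84 in PEA1 and 5.97, 6.17 and 5.96 in PEA2 (log2FC -0.87 ± 0.14, FDR 1.56e-05). The structural beta subunit PSMB2 read 8.69, 8.80 and 8.77 against 7.99, 7.95 and 7.88 (-0.82 ± 0.08, FDR 2.3e-08). For these 3 genes the libraries of the lines lay fully apart, which their choice among the 4 lowest called members largely set. PSMB4 had a log2FC of -0.61 ± 0.11 (FDR 6.27e-05) and PSMB7, the trypsin-like subunit, one of -0.42 ± 0.14 (FDR 0.0145), a call lost without replicate 2 of PEA1 or replicate 1 of PEA2 and when the pair was fitted alone. PSMB5 had a value of 0.21 ± 0.12 (FDR 0.134) and PSMB1 one of -0.10 ± 0.14 (FDR 0.522).

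PSMD13, a scaffold subunit of the lid, was the member that rose most in PEA2. At chr11:236966-252984, it read 5.87, 5.93 and 5.87 in PEA1 and 7.17, 7.34 and 7.13 in PEA2, and the log2FC was 1.32 ± 0.12 (FDR 9.22e-09). PSMD2, which docks ubiquitin receptors on the base, read 8.42, 8.17 and 8.06 in PEA1 and 9.15, 8.92 and 9.22 in PEA2 (0.88 ± 0.11, FDR 6.9e-07). The ATPase PSMC6 rose by 0.68 ± 0.21 (FDR 0.00768), though its PEA1 libraries were uneven at 5.41, 4.49 and 4.58, and without replicate 2 of PEA1 the call was lost. The lid subunits PSMD8 and PSMD11 moved the other way, with log2FC of -0.50 ± 0.13 (FDR 0.00293) and -0.26 ± 0.10 (FDR 0.0221). The second of these calls was lost in 4 of the fits without 1 library, those without replicate 1 or 3 of PEA1 and replicate 1 or 2 of PEA2, and when the pair was fitted alone. PSMD14 had a value of -0.08 ± 0.15 (FDR 0.638) and PSMD4 one of -0.20 ± 0.17 (FDR 0.31).

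The 2 chaperones that act as a dimer on the alpha ring moved apart in PEA2. PSMG1 read 5.28, 5.36 and 5.10 in PEA1 and 5.59, 5.94 and 5.84 in PEA2, a rise of 0.55 ± 0.15 (FDR 0.00362). PSMG2 read 6.54, 6.09 and 6.50 in PEA1 and 5.41, 5.61 and 5.59 in PEA2, with a log2FC of -0.84 ± 0.16 (FDR 0.000104). PSMG4 rose by 0.86 ± 0.31 (FDR 0.0222), where 1 PEA1 library read 1.90 against 3.29 and 3.27 in the others, and the call was lost without replicate 3 of PEA1, without replicate 1 or 3 of PEA2 and when the pair was fitted alone. Of the activators, PSME1 rose by 0.65 ± 0.13 (FDR 0.000235) and PSME4 by 0.38 ± 0.10 (FDR 0.00275), the latter not with quantile normalization. PSME2 had a log2FC of 0.12 ± 0.13 (FDR 0.423), PSME3 one of -0.13 ± 0.11 (FDR 0.309) and PSMF1 one of -0.13 ± 0.11 (FDR 0.314). With quantile normalization PSME3 and PSMF1 were called lower, PSME3 also without replicate 1 of PEA2.

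**Figure D3:**
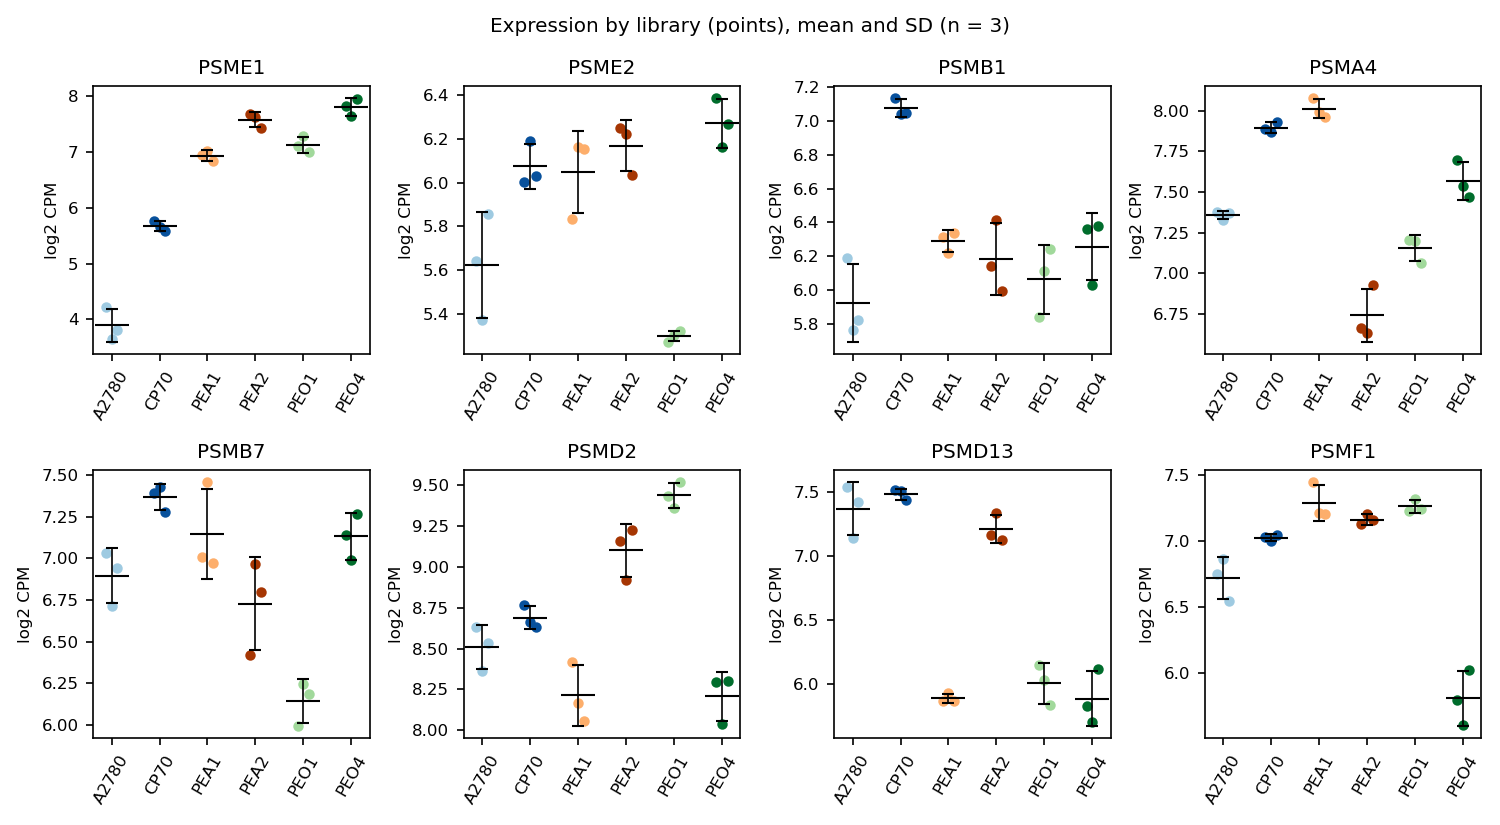
Log2 CPM of 8 members in every library (points, coloured by line), with the mean and SD (n = 3) of each line in black. The axes do not start at 0 and differ between panels. PSME1 is higher in the resistant line of each pair, PSMD2 is higher in PEA2 and lower in PEO4 than in the sensitive partner, and PSMF1 stands low in PEO4, at 5.61 to 6.02.

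In the PEO pair fewer members moved. PEO4 had 11 of 43 members (25.6%) higher than PEO1 and 3 (6.98%) lower, against 19.6% and 21.9% of all genes. The median log2FC was 0.11 over the members and -0.02 over all genes. Of the core subunits 5 of 14 were higher and the other 9 were not called, and of the 19S particle 3 of 17 were higher and 1 was lower. Over all genes 6.22% passed |log2FC| above 2 with an FDR below 0.05, and the largest absolute member value was 1.45.

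The largest change was a fall of PSMF1. Its gene lies at chr20:1093883-1170059, and it read 7.23, 7.32 and 7.24 in PEO1 and 5.80, 5.61 and 6.02 in PEO4. The log2FC was -1.45 ± 0.11 (FDR 1.62e-09), and every library of the other 5 lines lay above those of PEO4. PSMD2, at chr3:184016986-184026838, read 9.43, 9.36 and 9.52 in PEO1, its highest line, and 8.29, 8.04 and 8.30 in PEO4, with a log2FC of -1.23 ± 0.11 (FDR 2.34e-08). PSME3 was the third member that fell (-0.40 ± 0.11, FDR 0.0065), from 7.82, 7.78 and 7.87 to 7.58, 7.36 and 7.31.

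The catalytic subunit PSMB7 was the member that rose most in PEO4. At chr9:127115744-127177723, it read 6.0, 6.25 and 6.19 in PEO1 and 7.14, 6.99 and 7.27 in PEO4 (log2FC 0.99 ± 0.14, FDR 1.11e-05). PSME2 read 5.27, 5.30 and 5.32 in PEO1, its lowest line, and 6.38, 6.16 and 6.26 in PEO4 (0.97 ± 0.13, FDR 3.71e-06). PSMD14 read 6.16, 5.80 and 5.96 against 6.91, 6.82 and 6.80 (0.88 ± 0.15, FDR 6.18e-05), and PSMG1 read 4.99, 4.64 and 4.46 against 5.31, 5.57 and 5.69 (0.83 ± 0.15, FDR 0.000151). For these 4 genes no library of PEO4 fell within the range of PEO1, which their choice as the 4 highest called members largely set. PSME1 rose by 0.68 ± 0.13 (FDR 0.000296), PSMB2 by 0.64 ± 0.08 (FDR 1.47e-06) and PSMA4 by 0.41 ± 0.09 (FDR 0.000863).

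Other named members were not called in this pair. PSMB6 had a log2FC of 0.16 ± 0.14 (FDR 0.389), PSMB5 one of 0.20 ± 0.12 (FDR 0.195), PSMB1 one of 0.19 ± 0.14 (FDR 0.284) and PSMB4 one of 0.22 ± 0.11 (FDR 0.112), which was called without replicate 2 of PEO4. In the lid, PSMD13 had a value of -0.12 ± 0.12 (FDR 0.462), PSMD8 one of 0.15 ± 0.13 (FDR 0.403) and PSMD11 one of -0.10 ± 0.10 (FDR 0.433). PSMC6 had a log2FC of 0.14 ± 0.21 (FDR 0.635), PSMD4 one of -0.06 ± 0.17 (FDR 0.795), PSME4 one of -0.09 ± 0.10 (FDR 0.495), PSMG2 one of -0.26 ± 0.16 (FDR 0.197) and PSMG4 one of 0.51 ± 0.31 (FDR 0.207).

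PSME1 was the 1 member whose calls pointed the same way in every pair, and it was higher in each resistant line. Of all genes 1.59% were higher in all 3 pairs and 1.21% were lower in all 3. Its line means ran from 3.89 in A2780 through 5.67 in CP70 to 7.80 in PEO4, so that CP70 stayed below both serous sensitive lines. PEA1 libraries read 6.94, 7.02 and 6.83 and PEA2 libraries 7.68, 7.62 and 7.43. PEO1 libraries read 7.11, 7.28 and 6.99 and PEO4 libraries 7.82, 7.63 and 7.95. The order of the lines was A2780, CP70, PEA1, PEO1, PEA2 and PEO4, where PEO1 overlapped PEA1 and PEO4 overlapped PEA2. The rise in CP70 was larger than those in PEA2 and PEO4, by 1.12 ± 0.18 (FDR 3.11e-05) and 1.10 ± 0.18 (FDR 5.68e-05) on the log2 scale.

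A linear model over the 3 pairs, with the pair and the sensitivity as terms, called 8 members higher in the resistant lines, against 12.5% of all genes higher and 11.6% lower. The estimates were 1.03 ± 0.15 for PSME1 (FDR 0.000198), 0.51 ± 0.12 for PSME2, 0.50 ± 0.12 for PSMG1, 0.45 ± 0.13 for PSMD14 and between 0.26 and 0.35 for PSMC4, PSMD6, PSMC2 and PSMA3. No member was called lower by limma, and 2 had an unadjusted p below 0.05 in that direction. Limma with voom weights called the same numbers. When the 3 pair differences served as the replicates, no gene of the table was called, the smallest FDR of a member was 0.98, and 1 member had an unadjusted p below 0.05. The 8 calls therefore take the libraries, and not the pairs, as the replicates. In that model disagreement between pairs and spread between libraries enter 1 residual together.

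The promoters of the PA28 genes are shown because PSME1 alone rose in every pair and PSME2, its partner, rose in 2 of them. Sequences are the 250 bases before and 50 bases after the RefSeq start in GRCh38.p14, at chr14:24135944-24136243 on the plus strand for PSME1 and chr14:24146561-24146860 on the minus strand for PSME2, each written 5′ to 3′ along its gene. Capitals mark the core of an antioxidant response element (TGACNNNGC) and the core of an interferon response element (GAAANNGAA), searched on both strands.
PSME1: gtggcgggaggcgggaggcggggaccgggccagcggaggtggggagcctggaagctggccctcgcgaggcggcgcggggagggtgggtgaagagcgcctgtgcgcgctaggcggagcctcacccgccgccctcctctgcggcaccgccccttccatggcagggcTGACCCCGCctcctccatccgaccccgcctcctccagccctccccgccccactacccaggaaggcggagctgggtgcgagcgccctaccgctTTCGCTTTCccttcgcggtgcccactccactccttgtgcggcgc
PSME2: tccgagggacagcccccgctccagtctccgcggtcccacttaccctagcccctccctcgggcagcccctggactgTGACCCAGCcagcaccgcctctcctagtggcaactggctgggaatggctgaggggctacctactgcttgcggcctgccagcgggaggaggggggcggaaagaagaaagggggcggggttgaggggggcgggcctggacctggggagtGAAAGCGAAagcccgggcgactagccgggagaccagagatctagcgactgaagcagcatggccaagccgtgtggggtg

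Both promoters hold both cores. The antioxidant core begins 86 bases before the start in PSME1 and 175 before it in PSME2. The interferon core lies on the opposite strand just after the start of PSME1 and begins 28 bases before the start of PSME2. Of the 37 members with a promoter in the table, PSME1 and PSME2 were the 2 with both cores, and 0.971% of all 27305 promoters hold both. The 2 genes were picked for their changes in these data. Each core alone was more common among members than among all promoters, so 0.971% is not the share to expect for members. The antioxidant core was in 12 of the 37 member promoters (32.4%) and in 13.6% of all promoters. The interferon core was in 6 (16.2%) and in 8.29%, and its other carriers among members were PSMA4, PSMB4, PSMC2 and PSMG4. Among other short motifs, the ETS core CCGGAAG was in 12 member promoters (10.7% of all), the GC box GGGCGG in 25 (44.6%) and the CCAAT box in 17 (35.7%). A match of letters is a description and no binding was measured.

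Many members changed in opposite directions in different pairs. Of the 43 members, 16 (37.2%) were called higher in 1 pair and lower in another, against 27.5% of all genes, and 9 (20.9%) were called in no pair, against 15.7%. The pairs share no libraries. The most common form was higher in CP70 and lower in PEA2, with 12 members (27.9%, against 6.72% of all genes), among them 6 of the core (PSMA4, PSMA5, PSMB2, PSMB4, PSMB6 and PSMB7). Of those 12, PSMA4, PSMA5, PSMB2, PSMB7 and the ATPase PSMC5 were also higher in PEO4. PSMD2 was the 1 member higher in PEA2 and lower in PEO4. Of the 43 members 13 (30.2%) were higher in at least 2 pairs, against 15.3% of all genes.

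The difference between pairs was tested directly. It passed an FDR below 0.05 for 24 members between the PEA and A2780 pairs, 18 between the PEO and A2780 pairs and 21 between the PEO and PEA pairs. The shares over all genes were 57.5%, 47.5% and 58.7%. The largest was for PSMD2, whose log2FC in the PEO pair was below that in the PEA pair by 2.11 ± 0.15 (FDR 7.13e-10). PSMA4 differed by 1.80 ± 0.12 between the A2780 and PEA pairs (FDR 3.06e-10). The log2FC of PSMF1 in the PEO pair was below that in the A2780 pair by 1.75 ± 0.15 (FDR 8.82e-09). Of the 21 members between the PEO and PEA pairs 13 had the higher value in the PEO pair and 8 the lower, and with quantile normalization the split was 19 and 3.

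The balance of core against 19S reads does not depend on how libraries were scaled, because it is a ratio within a library. The 14 core genes had 0.719 ± 0.060 reads (SD, n = 3) per read on the 17 genes of the 19S particle in A2780 and 0.712 ± 0.012 in CP70. The ratio fell from 0.984 ± 0.066 in PEA1 to 0.666 ± 0.037 in PEA2, where the highest PEA2 library (0.708) lay below the lowest PEA1 library (0.935). In the PEO pair it went from 0.573 ± 0.0033 in PEO1 to 0.821 ± 0.012 in PEO4, again with no overlap. PSMD2 had a large part in the reads of the 19S particle. Without PSMD2, a setting chosen after the values were seen, the ratio was 1.15 ± 0.079 in PEA1 and 0.876 ± 0.022 in PEA2, and it was 0.820 ± 0.019 in PEO1 and 0.962 ± 0.022 in PEO4. The lines of both serous pairs stayed apart without it. The ratio counts reads and is not a ratio of molecules, since gene lengths differ.

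**Figure D4:**
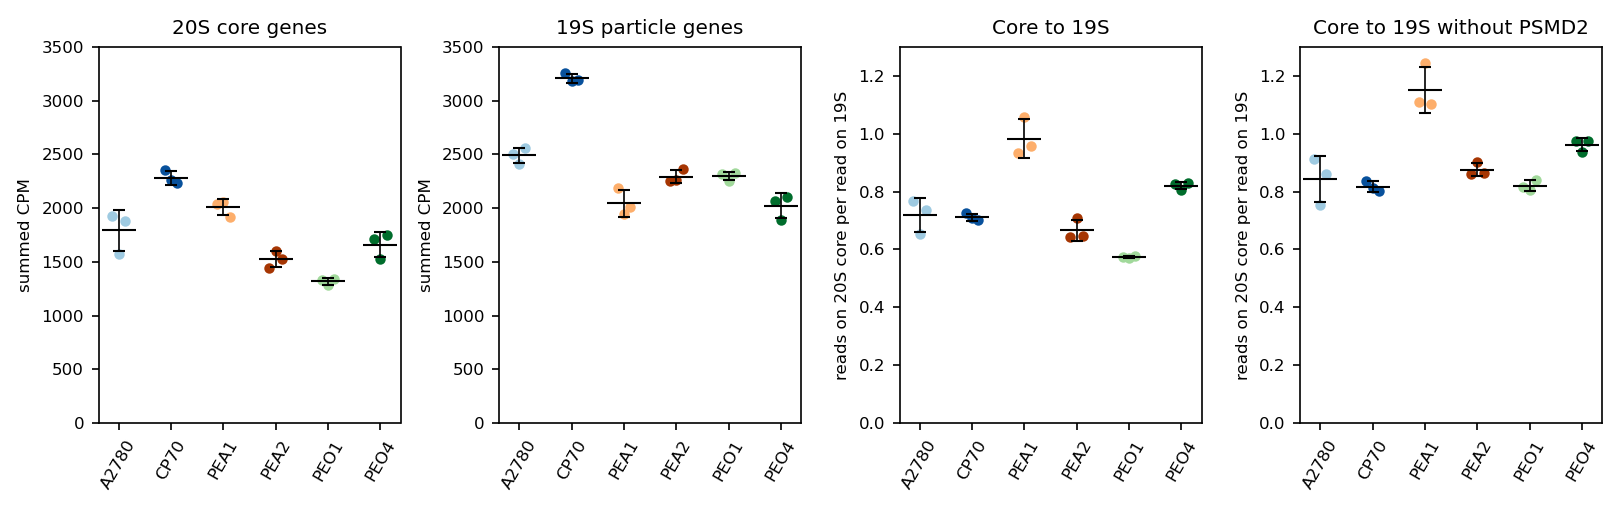
The left panels show the summed CPM of the 14 core genes and of the 17 genes of the 19S particle in every library, and the right panels the reads on the core per read on the 19S particle, with and without PSMD2. Bars are the mean and SD (n = 3) of a line. The ratio is alike in A2780 and CP70 (0.719 and 0.712), lower in PEA2 than in PEA1 (0.666 and 0.984) and higher in PEO4 than in PEO1 (0.821 and 0.573).

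Members were also grouped by chromosome, without regard to the distance between them, and 6 chromosomes hold 3 or more. In CP70 the members called higher were 6 of 7 on chromosome 17, 4 of 7 on chromosome 14, 3 of 4 on chromosome 1, 2 of 3 on chromosome 2, 2 of 3 on chromosome 7 and 1 of 3 on chromosome 11, against 22.2% of all genes. Only PSMC6, on chromosome 14, was lower. In PEA2 4 of 7 on chromosome 17 and 3 of 4 on chromosome 1 were lower, against 29.4% of all genes. Called higher in PEA2 were 2 of 7 on chromosome 14, 2 of 3 on chromosome 11 and 1 of 3 on chromosome 7, against 32.5% of all genes. Chromosome 2 had 1 member higher and 1 lower in this line. In PEO4 3 of 7 on chromosome 14, 2 of 4 on chromosome 1 and 1 of 3 on chromosome 2 were higher, against 19.6% of all genes, and chromosome 17 had 1 higher and 1 lower. The groups are small, the shares of all genes were not taken by chromosome, and no difference between chromosomes was tested.

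For each of the 42 members with a position, the median log2FC of the expressed genes within 1 Mb was also taken, a comparison chosen after the values were seen. Several of the largest changes were shared by the neighbourhood. In PEO4 the neighbours of PSMF1 had a median of -1.17 over 15 genes, those of PSMB7 1.03 over 12 genes and those of PSMD14 1.19 over 7 genes. In PEA2 the neighbours of PSMD13 had a median of 1.24 over 32 genes and those of PSMD2 1.12 over 21 genes. The neighbours of PSMB6 gave -1.04 over 31 genes and those of PSMG2 -1.08 over 13 genes in the same line. In CP70 those of PSMB1 gave 0.94 over 7 genes and those of PSMC6 -0.64 over 10 genes.

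Other large changes stood apart from their surroundings. The 27 neighbours of PSME1 had a median of -0.25 in CP70, where PSME1 rose by 1.77, and the neighbours of PSME2 had a median of 0.06 in PEO4, where PSME2 rose by 0.97. The 11 neighbours of PSMA4 gave -0.33 in PEA2, where it fell by 1.27. Over the 42 members the log2FC of a member and of its neighbours had a Spearman rho of 0.18 for CP70 against A2780, 0.66 for PEA2 against PEA1 and 0.56 for PEO4 against PEO1. Over 11728 genes of the table the same rho was 0.21, 0.45 and 0.40. Nearby members share neighbours, so these values are a description. DNA copy number was not measured in these data and its part was not tested.

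**Figure D5:**
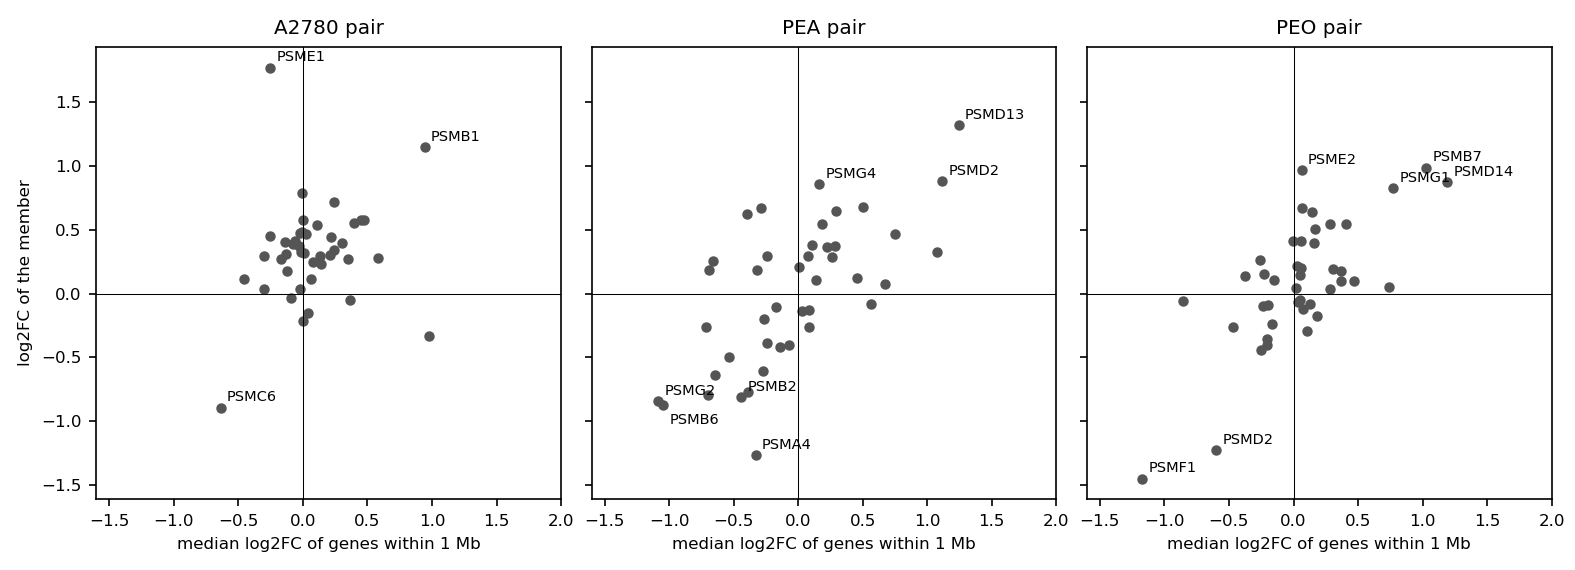
Each point is a member, with its own log2FC on the vertical axis and the median log2FC of the expressed genes within 1 Mb on the horizontal axis, 1 panel per pair. Names are given for called members beyond 0.8 in either direction. PSMD13 and PSMD2 in the PEA pair and PSMF1 and PSMB7 in the PEO pair lie near the diagonal, and PSME1 in the A2780 pair lies far above its neighbours (1.77 against -0.25).

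PSMB8 and PSMB9 were near the floor in A2780. All 3 immunoproteasome subunits were called higher in PEO4, where PSMB9 and PSMB10 rested on few reads in PEO1. PSMB8 had no read in A2780 and at most 1 read in a library of CP70. In PEO4 it rose over PEO1 by 2.24 ± 0.39 (FDR 9.7e-05), from 3.79, 3.93 and 3.67 to 6.14, 5.94 and 6.02. PSMB9 had at most 1 read in A2780 and 18 to 39 in CP70, at least 5.77-fold higher against a floor of 3 reads per library. It also rose in PEO4, by 2.37 ± 0.37 (FDR 3.19e-05), and PSMB10 rose there by 1.61 ± 0.50 (FDR 0.0139). PSMB9 had 6, 6 and 21 reads in PEO1 and 32, 49 and 29 in PEO4. PSMB10 had 2, 12 and 15 reads in PEO1 and 23, 17 and 12 in PEO4. The PEO1 libraries of PSMB10 read -0.29, 2.16 and 1.22 log2 CPM, the first of them under 3 reads. In PEA2 the log2FC was -0.19 ± 0.39 for PSMB8 (FDR 0.692), -0.12 ± 0.37 for PSMB9 (FDR 0.799) and -0.76 ± 0.50 for PSMB10 (FDR 0.192).

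Set against their constitutive partners per length, PSMB8 made up 11.0% ± 1.6 (SD, n = 3) of the sum of PSMB8 and PSMB5 in PEO1 and 33.8% ± 2.1 in PEO4. In PEA1 and PEA2 the share was 31.4% ± 1.6 and 25.9% ± 3.5. PSMB9 made up 4.04% ± 0.76 of the sum of PSMB9 and PSMB6 in PEO1 and 17.0% ± 3.6 in PEO4, 10.4% ± 3.2 in PEA1 and 16.2% ± 3.5 in PEA2, and 3.59% ± 0.58 in CP70. The PEA1 and PEA2 libraries overlapped. PSMB10 made up 3.45% ± 2.4 of its sum with PSMB7 in PEO1 and 4.66% ± 1.25 in PEO4, and the libraries of these lines overlapped. The share was 10.4% ± 4.3 in PEA1, 8.11% ± 2.0 in PEA2, 1.84% ± 0.82 in A2780 and 1.46% ± 0.17 in CP70. PSMB10 shares 54.8% of its exon bases with another gene on the same strand, so its level is uncertain. PSMB9 shares 14.6% on the same strand and 11.7% on the opposite strand, and PSMB8 shares 26.3% on the opposite strand. As the strand setting of the counting is not given, their shares carry some of the same uncertainty.

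Of the 32 other genes of the pathway, 14 were higher and 2 lower in CP70, 9 were higher and 9 lower in PEA2, and 9 were higher and 6 lower in PEO4. As shares these are 43.8% and 6.25% in CP70 (22.2% and 17.7% of all genes), 28.1% each way in PEA2 (32.5% and 29.4%), and 28.1% and 18.8% in PEO4 (19.6% and 21.9%). NFE2L1 rose by 0.60 ± 0.08 in CP70 (FDR 7.58e-06) and by 0.74 ± 0.08 in PEO4 (FDR 6.01e-07), and in PEA2 its log2FC was -0.25 ± 0.08 (FDR 0.0146). It read 7.21, 7.02 and 7.07 in A2780 and 7.68, 7.66 and 7.74 in CP70. PEA1 read 8.16, 7.93 and 8.06 and PEA2 7.75, 7.75 and 7.90, and PEO1 read 7.55, 7.53 and 7.44 and PEO4 8.27, 8.15 and 8.32. The libraries of the 2 lines lay apart in each pair. POMP, the chaperone that completes the core, rose by 0.57 ± 0.16 in CP70 (FDR 0.00731) and had a log2FC of 0.06 ± 0.16 in PEA2 (FDR 0.758), while in PEO4 its FDR was 0.994. Of the 15 genes for ubiquitin and its delivery, 9 were higher and 1 lower in CP70, 6 were higher and 3 lower in PEA2, and 2 were higher and 2 lower in PEO4.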

How the data were processed

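The members and the lists were chosen with earlier results of these data known. Libraries were directional and depleted of ribosomal RNA. The authors counted reads on hg19 known genes (featureCounts), normalized the counts with limma and deposited log2 CPM values, in which 0.5 reads are added to every count before division by a scaled library size. Their processing notes also name Bowtie2. Whole reads were recovered from 100% of the values tested (tolerance 0.01 reads). They gave depth and levels per kilobase, whose precision covers counting error only. Every column of values was used.

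Tests on the log2 values used limma 3.58.1 (R 4.3.3), in 1 fit of 18 libraries with a mean per line and a variance trend. The fit was also run on simulated counts, in which a gene had the same mean in every line unless set to change. The spread in that simulation was fixed and not fitted to the real replicates, so it does not give the error rates in these data. Calls used an FDR below 0.05 over 12853 genes. Positions and exon lengths came from GENCODE v44lift37 (GRCh37), which matched 12642 identifiers and 42 members, PSMB3 being the exception. Promoters came from RefSeq (GRCh38.p14), which matched 37 members. Named members were the 4 highest and 4 lowest called in each pair, those called alike in all 3 pairs, a fixed list of catalytic, regulatory and assembly genes, and the highest and lowest per kilobase. The alternatives were separate fits per pair, leaving out genes with a mean log2 of 0 or less, quantile normalization, median centring, a replicate block, no variance trend, voom weights, 2 reads added, |log2FC| above 1, the pair differences as replicates and leaving out each library.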

Additional observations from a re-analysis of the deposited data

Results flagged for a closer look

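Most named members were picked as the highest or lowest in single pairs, so that differences between pairs were largely set by the choice, and the count below is a description. Over all 43 members such differences numbered 24, 18 and 21 for the 3 comparisons of pairs, against 57.5%, 47.5% and 58.7% of all genes. For 20 of the 22 named members the change differed between at least 2 pairs at an FDR below 0.05, by limma's test of the difference itself, and the largest such difference of each is given here on the log2 scale. PEA minus A2780 was -1.80 for PSMA4, -1.35 for PSMB6, -1.29 for PSMD8, -1.28 for PSMG2, -1.26 for PSMB1, -1.12 for PSME1, -0.98 for PSMD11 and -0.90 for PSMB4. In the same difference PSMC6 gave 1.57 and PSMG4 1.19. PEO minus PEA was -2.11 for PSMD2, -1.44 for PSMD13 and -0.48 for PSME4, and it was 1.46 for PSMB2, 1.41 for PSMB7, 0.96 for PSMD14 and 0.85 for PSME2. PEO minus A2780 was -1.75 for PSMF1, -0.73 for PSME3 and 0.72 for PSMG1. The largest FDR among these was 0.0263. PSMB5 and PSMD4 had no called difference. Groups of 3 libraries were not tested for single outlying libraries.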

How the results depend on the processing

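Of the 1716 values of named members under an alternative, 1653 kept their direction and their side of the threshold, 42 lost a call, 5 gained one and 16 changed sign. The sign changes were all of values without a call. With quantile normalization PSMB5 in CP70 gave 0.0298 and PSME2 in PEA2 -0.0071, and with median centring PSMD4 in CP70 gave -0.0134 and PSME4 in CP70 -0.00797. Leaving out 1 library gave, in CP70, -0.196 to 0.0805 for PSMB5, -0.000169 to 0.202 for PSMD13, -0.189 to 0.228 for PSMD4 and -0.0146 to 0.124 for PSME4. It gave -0.284 to 0.0419 for PSMD14 in PEA2 and, in PEO4, -0.0125 to 0.291 for PSMB6, -0.158 to 0.0142 for PSMD11 and -0.221 to 0.0726 for PSMD4. For the counts, leaving out 1 library gave 16 to 26 members higher in CP70, 10 to 12 higher and 10 to 14 lower in PEA2, 9 to 11 higher in PEO4 and 7 to 11 higher in the linear model. With |log2FC| above 1 as a second condition, 2 members were higher and 0 lower in CP70, 1 higher and 1 lower in PEA2 and 0 higher and 2 lower in PEO4, by construction. Fitting each pair alone called 5 members lower in PEO4. With the replicate block the linear model called 3 members higher and CP70 had 23 higher, and same-numbered libraries did not deviate together (correlations from -0.0382 to 0.0782), so the numbers were not taken to pair them. With the 3 pair differences as replicates 0 members were called. The causes of these shifts were not tested. Depth limited the lowest members, of which 1 had 6 reads in a library.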

Other observations

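Among the 32 other genes of the pathway, 2 that were picked out after their values were seen were called alike in all 3 pairs. Of all genes 1.59% were higher in all 3 pairs and 1.21% were lower in all 3. ADRM1, a ubiquitin receptor of the 19S particle, was higher in each resistant line, with a log2FC of 0.63 ± 0.12 in CP70 (limma FDR 0.000177), 0.68 ± 0.12 in PEA2 (FDR 4.14e-05) and 0.47 ± 0.12 in PEO4 (FDR 0.0027). KIAA0368, which encodes the adaptor ECM29, was lower in each, with a log2FC of -0.56 ± 0.10 (FDR 0.00015), -0.78 ± 0.10 (FDR 1.66e-06) and -0.36 ± 0.10 (FDR 0.00826). NFE2L2, another gene of the pathway picked out in the same way, read higher in every library of each resistant line. Its highest A2780 library read 6.22 log2 CPM and its lowest CP70 library 6.33. The same values were 7.26 and 7.66 for PEA1 and PEA2, and 6.0 and 7.2 for PEO1 and PEO4.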
